A study of Homo sapiens with 15 samples.

Results

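The 8 chemokine genes described here are *CXCL1*, *CXCL2*, *CXCL3*, *CXCL5*, *CXCL6* and *CXCL8*, whose products draw neutrophils, and *CCL2* and *CCL20*, whose products draw monocytes and CCR6-bearing lymphocytes and dendritic cells. They were taken by symbol, as 8 of the 17237 genes listed for either of 2 human clear cell renal cell carcinoma (ccRCC) lines, because they stood out in earlier results of the same libraries, so their own values are a description and carry no test. RNA-seq was done on CAKi-1 cells, a line with an intact *VHL* gene, as 4 WT and 5 A4KO libraries, and on 786O cells, a line with mutant *VHL*, as 3 WT and 3 A4KO libraries, to ask which transcripts differ without ANGPTL4. A4KO cells were transfected with Cas9 protein and a single guide RNA against *ANGPTL4*, grown as single clones and combined as clones that had lost *ANGPTL4* mRNA. The WT cells were combined clones that had kept it, according to the design given with the data, while the methods of the study name parental cells for CAKi-1. All cells were untreated and were harvested in log phase, in RPMI according to the labels and in DMEM according to the methods. Levels are TPM, each transcript's share of its library after scaling for transcript length, and each line was analysed alone because its values were scaled on their own.

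CXC chemokines with the ELR motif bind CXCR1 and CXCR2 on neutrophils and bring them out of the blood, and epithelial cells release them when IL-1, TNF or bacterial products activate NF-κB. Their mRNAs are made quickly and broken down quickly, and proteins such as the RNase regnase-1 (*ZC3H12A*) limit them. CCL2 acts through CCR2 and CCL20 through CCR6. In kidney cancer, CXCL8 and its relatives are known as signals for neutrophils and for new vessels.

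The 6 CXC genes lie together on chromosome 4 of GRCh38, over 358.7 kb from 73740519 to 74099196 (GENCODE release 44). In order along the chromosome they are *CXCL8* (chr4:73740519-73743716), *CXCL6* (chr4:73836640-73849064) and *CXCL1* (chr4:73869393-73871308) on the plus strand, followed by *CXCL5* (chr4:73995642-73998677), *CXCL3* (chr4:74036589-74038807) and *CXCL2* (chr4:74097040-74099196) on the minus strand. *CCL20* is on chromosome 2 (chr2:227805739-227817564) and *CCL2* on chromosome 17 (chr17:34255274-34257208), both on the plus strand. The promoter sequences show what the CXC genes share before their start sites. The 9 letters GGAATTTCC, a form of the NF-κB motif searched on both strands, were found in the 250 bases upstream of the start in all 6 CXC genes, with the first letter at position -91 to -77 from it, and in 145 of all 35116 RefSeq promoters (0.413%). The 30 bases around them are given 5′ to 3′ on the strand of the gene (RefSeq, GRCh38.p14), with the motif in capitals.
CXCL1: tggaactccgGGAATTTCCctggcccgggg
CXCL2: tggagctccgGGAATTTCCctggcccggga
CXCL3: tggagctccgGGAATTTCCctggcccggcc
CXCL5: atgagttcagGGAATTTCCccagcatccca
CXCL6: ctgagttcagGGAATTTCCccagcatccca
CXCL8: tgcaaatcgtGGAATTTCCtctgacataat
CCL20: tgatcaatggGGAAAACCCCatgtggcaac

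These stretches lie, in the order given, at chr4:73869305-73869334, chr4:74099253-74099282, chr4:74038748-74038777, chr4:73998748-73998777, chr4:73836579-73836608, chr4:73740468-73740497 and chr2:227813753-227813782. In GENCODE the *CXCL3* stretch is inside an annotated *CXCL3* exon, the *CXCL5* stretch overlaps an exon of a neighbouring transcript, the *CCL20* stretch is in an intron of the longer *CCL20* model, and the others are upstream of their genes. *CCL20* does not hold the 9 letters in this window but holds another form of the 10-letter NF-κB motif, which also overlaps the 9 letters in *CXCL1*, *CXCL2*, *CXCL3*, *CXCL5* and *CXCL6* and is in 9.96% of all promoters. Over the 250 bases upstream of the start, *CXCL5* and *CXCL6* were 85.3% identical and *CXCL1* and *CXCL3* 81.4%. *CXCL2* shared 73.4% with *CXCL3* and 70.1% with *CXCL1*, and the remaining pairs shared between 43.9% and 54.2%. The AP-1 letters TGANTCA were found only in *CXCL8* (6.57% of all promoters), and TATAAA only in *CXCL8* and *CCL20* (10.7% of all promoters), both over the same 250 bases and both strands.

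*ANGPTL4* was lower in every A4KO library. In CAKi-1 it was 74.9, 83.2, 86.9 and 71.7 TPM in WT 1 to 4 and 7.26, 2.87, 2.87, 6.47 and 2.90 TPM in A4KO 1 to 5. In 786O it was 20.6, 17.6 and 18.1 TPM in WT and 2.19, 2.17 and 1.86 TPM in A4KO. The renal transcription factor *PAX8* lay between 143 and 238 TPM in all libraries, and the pan-leukocyte gene *PTPRC* between 0.154 and 0.541 TPM. The summed level of the leukocyte markers analysed was 1.87 to 3.87 TPM in WT and 3.29 to 5.53 TPM in A4KO of CAKi-1 (5 of 12 markers, 0 called, with *CSF1R* at 1.51 ± 0.344 TPM in WT and 3.35 ± 0.912 TPM in A4KO (SD) without overlap, log2 fold change 0.78, adjusted p = 0.00388), and 3.94 to 4.22 TPM in WT and 1.30 to 2.05 TPM in A4KO of 786O (4 of 12 markers, *CSF1R* called lower). *CA9*, a HIF target, was analysed only in 786O, at 7.54 ± 0.774 TPM in WT and 0.287 ± 0.177 TPM in A4KO (SD, n = 3 each). In CAKi-1, the endothelial marker *PECAM1* was called higher in A4KO (0.209 to 0.555 against 1.54 to 6.17 TPM, the only one of 5 endothelial markers analysed), as was 1 of 5 fibroblast markers, *COL1A1* (all genes, 2.21%). In 786O, 0 of 2 endothelial markers were called, and of 4 fibroblast markers 1 was called higher (*PDGFRB*) and 1 lower (*LUM*), where 2.43% and 5.19% of all genes were. Of 10 renal epithelial markers in CAKi-1, the keratins *KRT8* and *KRT18* were called lower (log2 fold changes -1.88 and -1.57) and 0 higher (all genes, 1.12% and 2.21%). Of 12 in 786O, 4 were called lower (*CA9*, *CDH6*, *EPCAM* and *NDUFA4L2*, between -2.73 and -1.09) and 1 higher (*PAX2*, 1.78), against 5.19% and 2.43% of all genes. The part of these markers in the chemokine results was not tested.

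Libraries of WT CAKi-1 stood far apart from each other in these chemokines, which bears on each of their comparisons in this line. In all 7 chemokines analysed in CAKi-1, WT 1 was the lowest, WT 2 the next, WT 3 higher and WT 4 the highest. The summed level of the 7 genes was 77.1, 125, 1541 and 6163 TPM in WT 1 to 4. In A4KO 1 to 5 it was 20656, 14556, 13340, 20172 and 11479 TPM, so the A4KO libraries all exceeded the WT libraries. These transcripts made up between 0.00794% and 0.633% of all TPM in WT and between 1.18% and 2.12% in A4KO. The labels give no date or batch that sets WT 3 and WT 4 apart. *ANGPTL4* varied only 1.21 times between the highest and lowest of the same 4 WT libraries.

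**Figure D1:**
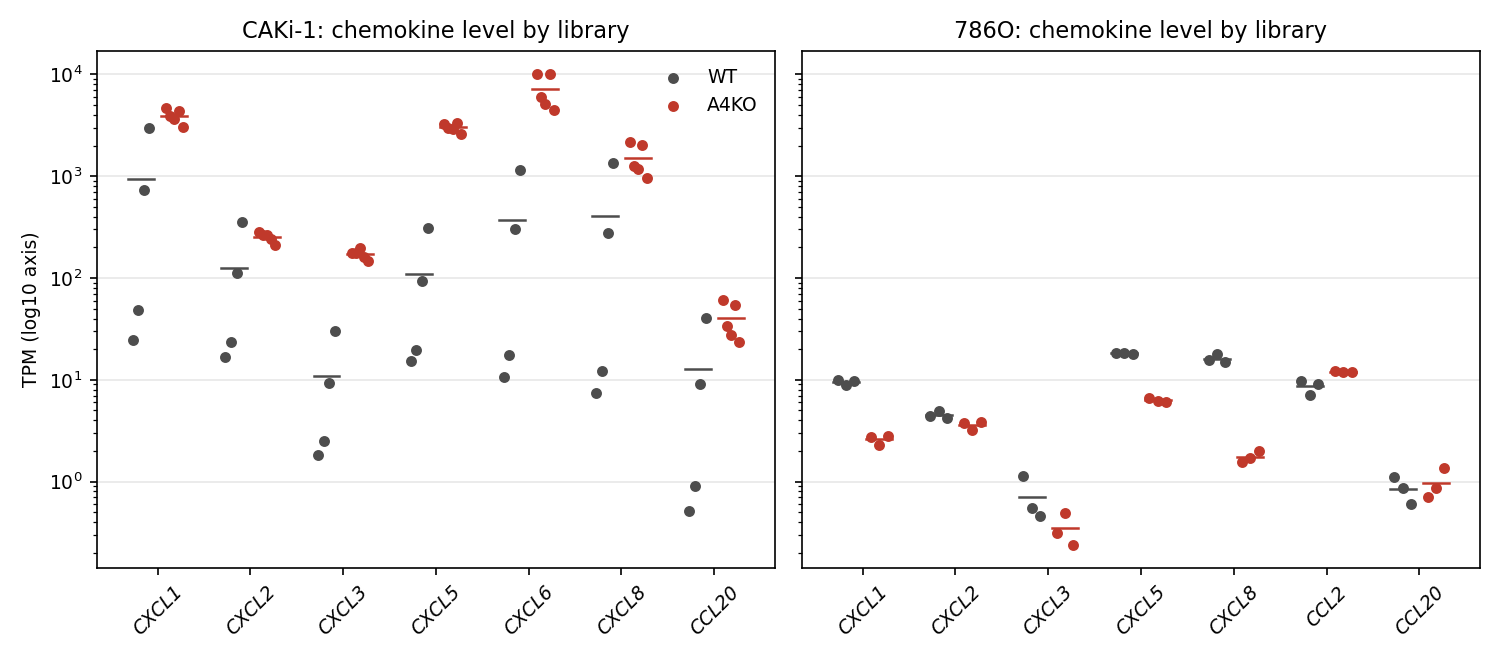
Level of each chemokine in TPM (log10 axis) in every library of CAKi-1 (left) and 786O (right). Dark points are WT and red points A4KO libraries, each placed from left to right by replicate number, and the bars are group means. In CAKi-1 the WT points of a gene spread over more than a factor of 10 while the A4KO points stay close together, and in 786O *CXCL1*, *CXCL5* and *CXCL8* lie lower in A4KO without overlap.

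In CAKi-1, *CXCL5*, *CXCL3* and *CXCL6* had the widest gap between A4KO and WT. *CXCL5*, which encodes a neutrophil attractant of epithelial cells (ENA-78), was 15.2, 19.6, 93.5 and 312 TPM in WT 1 to 4 and 3285, 2997, 2937, 3304 and 2586 TPM in A4KO 1 to 5. The lowest A4KO library was 8.28 times the highest WT library, and the log2 fold change of TPM + 1 was 5.75 (SE 0.76). *CXCL3* (GRO-γ) was 1.84, 2.50, 9.41 and 29.9 TPM in WT and 175, 178, 197, 161 and 146 TPM in A4KO. Here the lowest A4KO library was 4.87 times the highest WT library, with a log2 fold change of 4.51 (SE 0.61).

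*CXCL6* (GCP-2), the closest relative of *CXCL5* by its promoter, reached the highest levels of the group. It was 10.7, 17.6, 303 and 1140 TPM in WT and 10011, 5956, 5072, 10026 and 4485 TPM in A4KO, with a log2 fold change of 6.17 (SE 1.23). In A4KO 1 and A4KO 4 it ranked 5 from the highest of 16296 genes. Its groups did not overlap either, and the lowest A4KO library was 3.93 times the highest WT library.

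*CXCL1* (GRO-α) came next, with groups that did not overlap by a small margin. It was 24.5, 48.6, 736 and 2943 TPM in WT 1 to 4 and 4663, 3875, 3665, 4352 and 3062 TPM in A4KO 1 to 5. The lowest A4KO library was 1.04 times the highest WT library, and the log2 fold change was 4.08 (SE 1.23). WT 4 thus nearly reached the A4KO libraries in *CXCL1*, but not in *CXCL3*, *CXCL5* or *CXCL6*.

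The groups overlapped for *CXCL8*, *CXCL2* and *CCL20*, always because of WT 4. *CXCL8*, which encodes interleukin-8, was 7.51, 12.1, 278 and 1346 TPM in WT and 2177, 1252, 1174, 2029 and 964 TPM in A4KO (log2 fold change 4.16, SE 1.36). *CXCL2* (GRO-β) was 16.9, 23.7, 112 and 351 TPM in WT and 283, 264, 266, 244 and 213 TPM in A4KO (1.97, SE 0.76). WT 4 was above all 5 A4KO libraries in *CXCL2* and above A4KO 2, 3 and 5 in *CXCL8*. *CCL20*, the only CC chemokine of the group analysed in CAKi-1, was 0.510, 0.904, 9.04 and 40.6 TPM in WT and 60.5, 33.9, 27.5, 54.9 and 23.4 TPM in A4KO (2.70, SE 0.89), so that WT 4 lay between A4KO 4 and A4KO 2.

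A gene was called when its log2 fold change was at least 1 in size and its adjusted p at most 0.05 (limma over all genes of the line, Benjamini-Hochberg). By this rule 6 of the 7 chemokines were called higher in A4KO and 0 lower, where 2.21% of all 16296 genes were called higher, 1.12% lower and 3.33% in either direction. The chemokine not called was *CXCL2*. By the adjusted p alone the counts were also 6 and 0 (all genes, 17.9% and 21.1%). The groups did not overlap in 4 of the 7, all higher in A4KO (16.1% of all genes), and in 0 that were lower (19.8%). As the chemokines were chosen from this contrast, nothing is read from these counts.

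Single WT libraries moved the size of these differences, which was lowest without WT 1 and highest without WT 4 in all 7 chemokines. Between these settings the log2 fold change ran from 3.08 to 5.52 for *CXCL8*, from 3.03 to 5.31 for *CXCL1*, from 5.17 to 7.37 for *CXCL6* and from 2.05 to 3.65 for *CCL20*. It ran from 1.35 to 2.79 for *CXCL2*, from 5.15 to 6.57 for *CXCL5* and from 4.04 to 5.19 for *CXCL3*. Single libraries also decided part of the calls, from which nothing is read either, as the chemokines were chosen from this contrast. With each library left out in turn, between 3 and 7 of the 7 chemokines were called, and *CXCL3*, *CXCL5* and *CXCL6* were called each time. They were the only 3 called without WT 1, without WT 2, without A4KO 1 and without A4KO 4, and also without A4KO 1 and A4KO 4 together. All 7 were called without WT 4, and also without WT 3 and WT 4 together, when the log2 fold changes lay between 3.59 (*CXCL2*) and 8.83 (*CXCL6*).

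**Figure D2:**
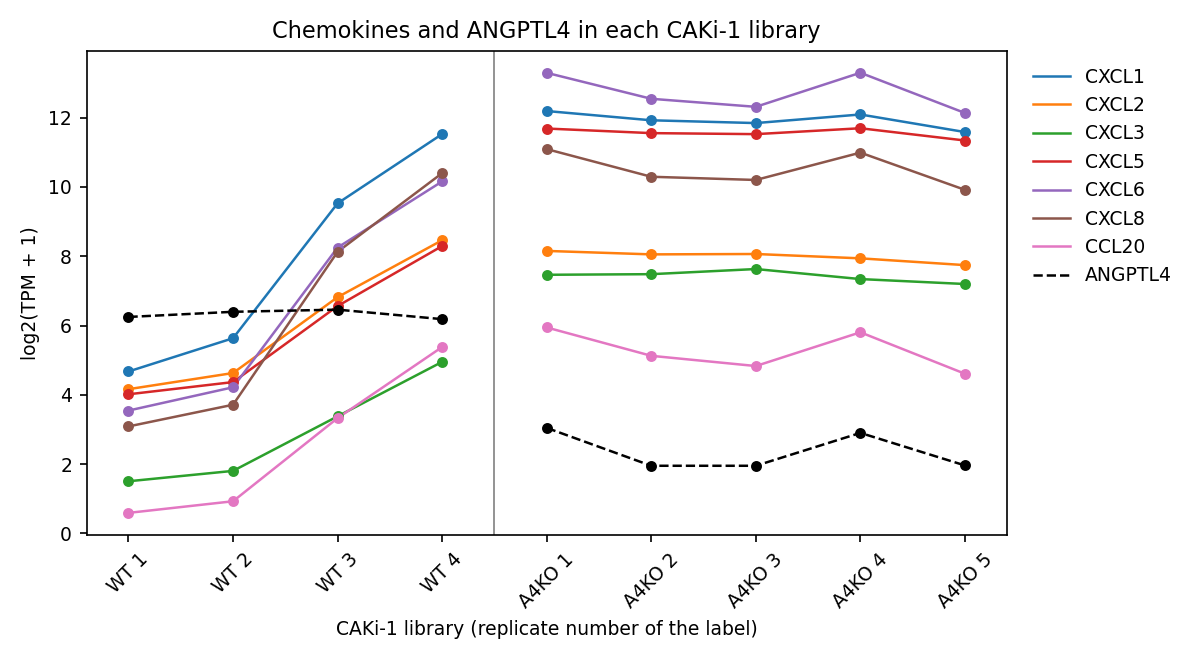
Level as log2(TPM + 1) of the 7 chemokines (coloured lines) and *ANGPTL4* (dashed line) in each CAKi-1 library, with WT libraries left and A4KO libraries right of the grey line. The lines join libraries only to show the shared pattern, with all 7 chemokines highest in WT 4 among WT libraries and *ANGPTL4* nearly level in WT.

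The ratio of the highest to the lowest WT library, which was WT 4 over WT 1 in each case, was 179 for *CXCL8*, 120 for *CXCL1* and 107 for *CXCL6*. It was 79.7 for *CCL20*, 20.8 for *CXCL2*, 20.6 for *CXCL5* and 16.3 for *CXCL3*. Over the 12573 genes with a WT mean of at least 1 TPM, the median ratio of WT 4 to WT 1 was 0.991, with 0.534 and 2.26 at the 1st and 99th percentiles. A ratio of at least 10 was found in 21 genes, and 7 of these were the chemokines. The other 14 included the granulocyte growth factors *CSF3* and *CSF2*, *IL6*, *IL1A* and *IL1B*, and the neutrophil gelatinase-associated lipocalin *LCN2*. The order of WT 1, 2, 3 and 4 seen in all 7 chemokines held for 6.41% of the 12573 genes.

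So wide a spread in WT was not a general property of the genes called in this line, although their medians put WT 4 towards A4KO. For the 354 called genes that were higher in A4KO and are not members, the median ratio of WT 4 to WT 1 was 1.28. It was 0.991 over the genes with a WT mean of at least 1 TPM. WT 4 was the highest WT library in 56.8% of the 354, and the share over all genes is not given. For the 183 genes called lower, the median ratio was 0.855. Among the A4KO libraries the chemokines differed far less, by 1.28 times between highest and lowest for *CXCL5* and 2.59 times for *CCL20*, with the others in between. A4KO 1 and A4KO 4 were the highest in *CXCL1*, *CXCL5*, *CXCL6*, *CXCL8* and *CCL20*, but not in *CXCL2* or *CXCL3*, and were also the A4KO libraries with the most *ANGPTL4*. The part of *ANGPTL4* in this was not tested.

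**Figure D3:**
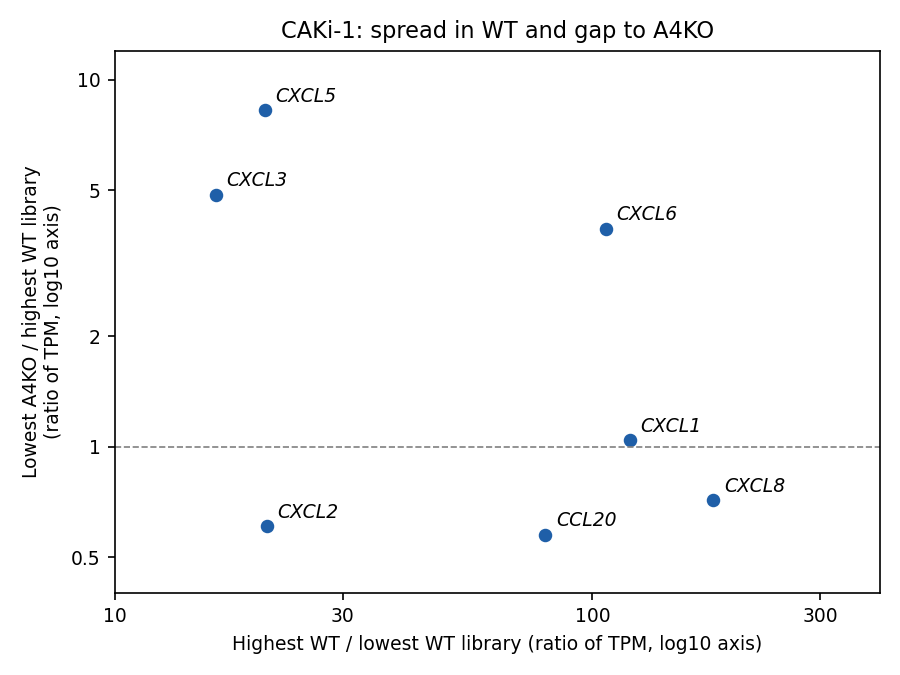
For each chemokine in CAKi-1, the ratio of the highest to the lowest WT library (horizontal, log10 axis) against the ratio of the lowest A4KO to the highest WT library (vertical, log10 axis). Points above the dashed line at 1 have groups that do not overlap, which are *CXCL1*, *CXCL3*, *CXCL5* and *CXCL6*, while *CXCL2*, *CXCL8* and *CCL20* are below it.

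The mix of chemokines differed between libraries as well as their sum. *CXCL1* was the most abundant of the 7 in each WT library, with 31.8% to 47.7% of the summed level. *CXCL6* was the most abundant in each A4KO library, with 38.0% to 49.7%, against 13.8% to 19.7% in WT. *CXCL2* made up 21.9% and 19.0% of the sum in WT 1 and WT 2, 7.25% and 5.70% in WT 3 and WT 4, and 1.21% to 2.0% in A4KO.

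Ratios within a library leave its summed level aside, and 5 pairs of the chemokines were compared in this way after the values had been seen. *CXCL6* over *CXCL8* was 1.42, 1.45, 1.09 and 0.847 in WT 1 to 4 and 4.60, 4.76, 4.32, 4.94 and 4.65 in A4KO 1 to 5. *CXCL3* over *CXCL2* was 0.109, 0.105, 0.0842 and 0.0852 in WT and between 0.619 and 0.739 in A4KO. For *CXCL6* over *CXCL8*, WT 4 was the lowest WT library and the farthest from A4KO. For *CXCL3* over *CXCL2*, WT 4 lay within the range of the other WT libraries. In both ratios every WT library was below every A4KO library. *CXCL5* over *CXCL1* was 0.619, 0.404, 0.127 and 0.106 in WT and between 0.705 and 0.845 in A4KO, so that WT 4 was here too the farthest from A4KO. *CXCL2* over *CXCL1* was 0.690, 0.488, 0.152 and 0.119 in WT and between 0.0561 and 0.0727 in A4KO, and here WT 4 was the nearest to A4KO. *CXCL8* over *CXCL1* overlapped between the groups, at 0.306, 0.249, 0.379 and 0.457 in WT and between 0.315 and 0.467 in A4KO. WT 4 therefore had no fixed place between the groups across the 5 ratios.

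By their mean in A4KO CAKi-1 (SD, n = 5), the levels ran from *CXCL6* at 7110 ± 2706 TPM to *CXCL1* at 3923 ± 621 TPM, *CXCL5* at 3022 ± 294 TPM, *CXCL8* at 1519 ± 546 TPM, *CXCL2* at 254 ± 26.9 TPM, *CXCL3* at 171 ± 19.2 TPM and *CCL20* at 40.0 ± 16.7 TPM. The libraries of *CXCL6* and *CXCL1* overlapped, as did those of *CXCL1* and *CXCL5*, and no other neighbours in this order did. In WT the SD was larger than the mean for each of the 7 genes, from 120% of the mean for *CXCL3* to 155% for *CXCL8* (n = 4), and the order is not given.

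Reads of close relatives can be assigned to the wrong copy, which bears on *CXCL1*, *CXCL2* and *CXCL3*. Of the distinct 31-base words in the GENCODE transcripts of *CXCL2*, 23.5% also occur in another gene, mostly *CXCL3*. The shares were 13.7% for *CXCL1*, 9.23% for *CXCL3*, 4.83% for *CXCL6* and 4.61% for *CXCL5*. No such word was found for *CXCL8* or *CCL2*, and 0.063% were shared for *CCL20*.

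The 7 chemokines varied together across the CAKi-1 libraries. With log2(TPM + 1) centred on the mean of the library's own group, Pearson's r of the 21 gene pairs lay between 0.953 and 0.999, with a median of 0.986, and Spearman's rho between 0.833 and 1, with a median of 0.95 (9 libraries). Without WT 1 and WT 4, the libraries farthest from the median profile, r lay between 0.815 and 0.998, with a median of 0.964 (7 libraries). The points share the same libraries and most of their range comes from the WT libraries, so these values are a description.

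The genes whose centred pattern was most like the mean of the 7 were sought among 12735 other genes with a mean of at least 1 TPM. The 10 most alike were *IL1A* (r = 0.996), *VEGFC* (0.989), *SAA2* (0.988), *SAA1* (0.986), *SOCS3* (0.985), *TNIP1* (0.984), *RFLNA* (0.982), *IRAK2* (0.982), *CDC42SE2* (0.982) and *CD40* (0.978). *IL1A* encodes interleukin-1α, and it was 1.89, 2.46, 9.56 and 23.7 TPM in WT 1 to 4 and 13.2, 9.57, 9.26, 10.3 and 8.39 TPM in A4KO 1 to 5. *IL1A* therefore followed the chemokines among the WT libraries while WT 4 exceeded all A4KO libraries. *IRAK2* encodes a kinase of the IL-1 receptor pathway, *TNIP1* a partner of the NF-κB inhibitor A20, and *SOCS3* an inhibitor of cytokine signalling.

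*SAA1* and *SAA2*, which encode acute-phase serum amyloid A proteins, were like the chemokines in both respects. *SAA1* was 247, 253, 668 and 1774 TPM in WT and between 3808 and 5076 TPM in A4KO. *SAA2* was 94.4, 104, 335 and 796 TPM in WT and between 2001 and 3305 TPM in A4KO. Both were called higher in A4KO, as was *RFLNA*, and the other 7 of the 10 were not called. Their reads can be shared, since *SAA1* and *SAA2* are near copies of each other. A correlation of at least 0.9 with the mean pattern was found in 0.848% of the 12735 genes. Without WT 1 and WT 4 the r of the 10 lay between 0.921 and 0.986. Within the A4KO libraries alone their r fell to 0.476 at the lowest, with a median of 0.887 (5 libraries), and 0 of the 10 were among the 10 most alike when WT or A4KO libraries were used alone.

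In 786O the largest differences between A4KO and WT were in the other direction, with *CXCL8*, *CXCL1* and *CXCL5* lower in A4KO. The summed level of the 7 genes analysed, which include *CCL2* in place of *CXCL6*, was 57.3 to 60.3 TPM in WT and 26.7 to 28.2 TPM in A4KO. *CXCL8* was 15.7, 17.9 and 15.0 TPM in WT 1 to 3 and 1.57, 1.72 and 2.0 TPM in A4KO 1 to 3, with a log2 fold change of -2.64 (SE 0.085). *CXCL1* was 10.1, 8.85 and 9.74 TPM in WT and 2.72, 2.30 and 2.82 TPM in A4KO (-1.55, SE 0.073). For these genes the lowest WT library was well above the highest A4KO library. *CXCL5* was 18.3, 18.5 and 18.1 TPM in WT and 6.70, 6.17 and 6.06 TPM in A4KO (-1.40, SE 0.044), also without overlap.

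*CXCL2*, *CXCL3*, *CCL2* and *CCL20* differed less in 786O. *CXCL2* was 4.37, 4.96 and 4.25 TPM in WT and 3.73, 3.25 and 3.86 TPM in A4KO (-0.26, SE 0.072), without overlap. After quantile normalization this difference was -0.037. *CCL2*, the monocyte attractant MCP-1, was analysed only in 786O, as *CXCL6* was only in CAKi-1. It was the only one of the 7 that was higher in A4KO without overlap, at 9.65, 7.15 and 9.20 TPM in WT and 12.3, 11.9 and 11.8 TPM in A4KO (0.44, SE 0.10).

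*CXCL3* in 786O was 1.12, 0.547 and 0.461 TPM in WT and 0.316, 0.496 and 0.241 TPM in A4KO (-0.32, SE 0.15). *CCL20* was 1.10, 0.865 and 0.602 TPM in WT and 0.699, 0.870 and 1.37 TPM in A4KO (0.087, SE 0.15). Both overlapped between the groups and stayed near 1 TPM, where a pseudocount of 1 draws a fold change towards 0.

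By the call rule, 0 of the 7 chemokines were higher and 3 lower in A4KO of 786O (*CXCL1*, *CXCL5* and *CXCL8*), where 2.43% of all 16188 genes were called higher, 5.19% lower and 7.62% in either direction. By the adjusted p alone, 1 was higher and 4 were lower (27.5% and 33.5% of all genes). The groups did not overlap in 1 chemokine that was higher (30.1% of all genes) and in 4 that were lower (36.8%). Of all called genes in 786O 31.9% were higher, and 42.7% were after quantile normalization, which left the same 3 chemokines called. The 3 calls were also made without each library in turn. As the chemokines were chosen with these values known, nothing is read from these calls or counts. By their mean in WT the order was *CXCL5* at 18.3 ± 0.187 TPM, *CXCL8* at 16.2 ± 1.53 TPM, *CXCL1* at 9.55 ± 0.629 TPM, *CCL2* at 8.67 ± 1.33 TPM, *CXCL2* at 4.53 ± 0.377 TPM, *CCL20* at 0.856 ± 0.249 TPM and *CXCL3* at 0.711 ± 0.361 TPM (SD, n = 3). The libraries of *CXCL1* and *CCL2* overlapped, as did those of *CCL20* and *CXCL3*. In A4KO, *CCL2* alone made up 41.9% to 44.6% of the summed level, against 12.2% to 16.0% in WT.

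**Figure D4:**
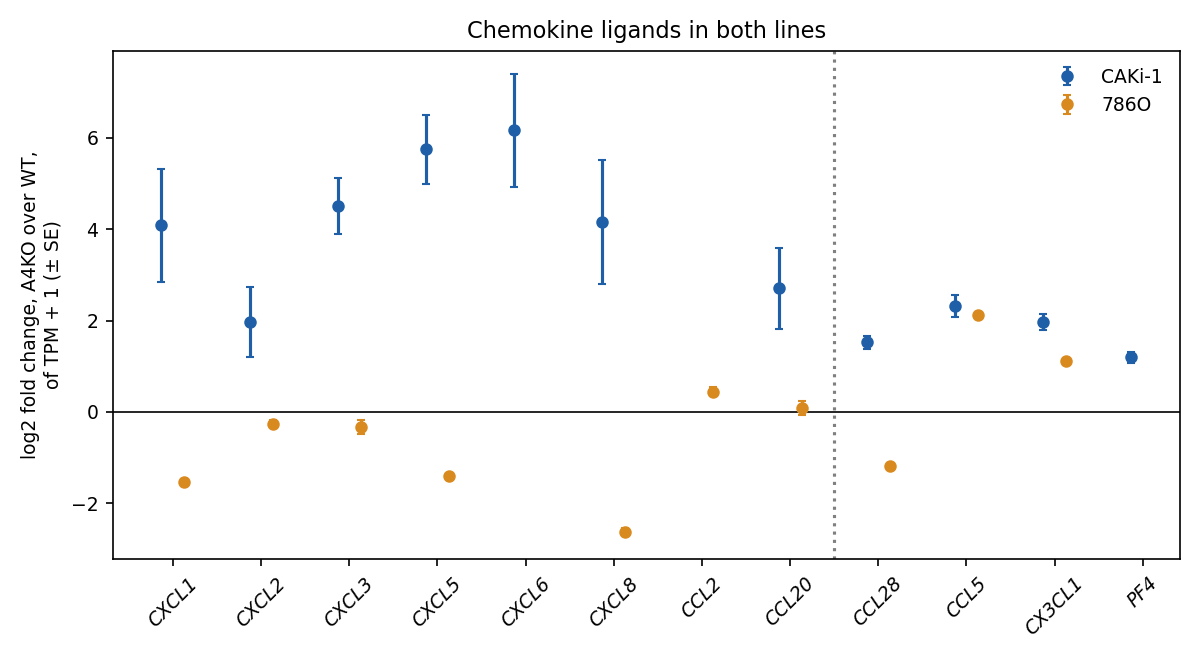
Log2 fold change of TPM + 1, A4KO over WT, with its SE, for the 8 chemokines and, right of the dotted line, the 4 other chemokine ligands called in at least 1 line (blue, CAKi-1; orange, 786O). *CXCL1* and *CXCL5* are above 0 in CAKi-1 and below 0 in 786O, and *CCL5* and *CX3CL1* are above 0 in both lines.

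The other chemokine ligands were tested, as the rule for the group does not use their values, although this list, like the lists that follow, was drawn up with earlier results known. Of 39 listed ligands, 9 were analysed in CAKi-1 and 4 were called higher and 0 lower (all genes, 2.21% and 1.12%). The median log2 fold change of the 9 was 0.14, and that of all genes in this line was -0.0078. *CCL5* (RANTES), which draws T cells and monocytes, rose from 0.316, 0.603, 0.465 and 1.37 TPM in WT to 9.88, 5.85, 5.0, 11 and 5.89 TPM in A4KO (log2 fold change 2.32, SE 0.24, adjusted p = 1.47e-04). *CX3CL1*, which encodes the membrane-bound fractalkine, rose from between 4.96 and 5.89 TPM to between 18.4 and 33.4 TPM (1.96, SE 0.18, adjusted p = 6.87e-05).

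*CCL28*, a mucosal chemokine, rose in CAKi-1 from between 1.62 and 2.31 TPM to between 5.83 and 10.0 TPM (1.53, SE 0.14, adjusted p = 7.63e-05). *PF4*, the platelet factor 4 gene between *CXCL1* and *CXCL5* on chromosome 4, rose from between 0.134 and 0.366 TPM to between 1.47 and 2.70 TPM (1.19, SE 0.12, adjusted p = 9.58e-05). With a pseudocount of 0.1 in place of 1, the log2 fold change was 2.51 for *PF4* and 3.37 for *CCL5*, since their WT levels were low, and 2.13 for *CX3CL1* and 1.89 for *CCL28*. Among the WT libraries these 4 spread less than the 7 chemokines did. All 4 were called with each library left out in turn.

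In 786O, 10 of the 39 were analysed, with 2 called higher and 1 lower (all genes, 2.43% and 5.19%). Their median log2 fold change was -0.024, against -0.030 over all genes. *CCL5* rose from 3.31, 2.85 and 2.95 TPM to 15.7, 15.8 and 18.3 TPM (2.12, SE 0.074, adjusted p = 3.59e-06), and *CX3CL1* rose from between 3.42 and 3.65 TPM to between 8.66 and 9.04 TPM (1.11, SE 0.038, adjusted p = 3.31e-06). *CCL28* fell from between 13.8 and 15.4 TPM to between 5.74 and 6.39 TPM (-1.18, SE 0.060, adjusted p = 1.40e-05). *CCL5* and *CX3CL1* thus rose in both lines, while *CXCL1*, *CXCL5* and *CCL28* lay in opposite directions. The difference between the lines was not tested.

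Most receptors of these chemokines could not be compared. *CXCR1*, *CXCR2*, *CCR2* and the scavenger receptor *ACKR1* were not analysed here, and *CCR6*, the receptor of CCL20, was analysed only in 786O, at 0.522 ± 0.046 TPM in WT and 0.508 ± 0.107 TPM in A4KO (SD, n = 3 each). Of 23 listed receptors, 8 were analysed in CAKi-1, and limma called 0 higher and 0 lower (all genes, 2.21% and 1.12%), while 3 were lower by the adjusted p alone (all genes, 21.1%). In 786O, 11 were analysed, with 0 called higher and 1 lower (all genes, 2.43% and 5.19%). This was *ACKR3*, a decoy receptor of CXCL12, which fell from 20.4 ± 0.453 TPM to 0.906 ± 0.188 TPM (SD, n = 3 each; log2 fold change -3.49, SE 0.074, adjusted p = 7.27e-07).

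Among cytokines and colony-stimulating factors that induce chemokines or act beside them, 16 of 24 were analysed in CAKi-1, with 3 called higher and 0 lower (all genes, 2.21% and 1.12%). *IL6* was 5.38, 10.7, 33.2 and 145 TPM in WT 1 to 4 and 269, 134, 157, 217 and 117 TPM in A4KO 1 to 5, so its WT libraries spread like those of the chemokines and overlapped with A4KO. It was called higher (2.80, SE 0.78, adjusted p = 0.0198), but not without WT 2 (adjusted p = 0.0608) or without A4KO 1 and A4KO 4 together (adjusted p = 0.0828). Its log2 fold change lay between 2.14 and 3.65 with each library left out in turn. *IL11*, of the same cytokine family, rose from between 9.17 and 11.4 TPM to between 32.8 and 66.4 TPM (2.05, SE 0.20, adjusted p = 8.42e-05). *CSF1*, the macrophage growth factor, rose from 38.3, 39.7, 59.6 and 92.5 TPM to between 180 and 255 TPM (1.95, SE 0.25, adjusted p = 3.81e-04).

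The granulocyte factors, outside the rule for naming genes and chosen after their values were seen, followed the WT spread but were not called. *CSF2* was 5.04, 10.4, 79.8 and 236 TPM in WT and between 59.5 and 103 TPM in A4KO (1.25, SE 0.95, adjusted p = 0.328). *CSF3* was 0.0215, 0.0795, 1.15 and 6.51 TPM in WT and between 1.77 and 5.74 TPM in A4KO (0.91, SE 0.57, adjusted p = 0.242). Without WT 4, 8 genes of this list were called in CAKi-1, all higher.

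In 786O, 15 of the 24 were analysed, with 0 called higher and 3 lower (all genes, 2.43% and 5.19%). *IL11* fell from 23.8, 24.1 and 23.8 TPM to 1.16, 1.27 and 1.83 TPM (-3.37, SE 0.10, adjusted p = 2.14e-06). *IL18*, an inflammasome product, fell from between 18.1 and 18.3 TPM to between 3.00 and 3.73 TPM (-2.14, SE 0.064, adjusted p = 2.10e-06). *IL6* fell from 29.0, 33.2 and 32.6 TPM to 13.7, 12.6 and 12.6 TPM (-1.22, SE 0.063, adjusted p = 1.49e-05).

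All 27 listed receptors and adaptors that sense IL-1, IL-6, IL-17, TNF and bacterial products were analysed in CAKi-1, with 0 called higher and 1 lower (all genes, 2.21% and 1.12%), and 0 and 8 by the adjusted p alone (all genes, 17.9% and 21.1%). *IL6R*, which encodes the IL-6 receptor, fell from between 9.79 and 12.4 TPM to between 2.78 and 3.76 TPM (-1.48, SE 0.085, adjusted p = 6.48e-06). In 786O, 26 were analysed, with 1 called higher and 3 lower (all genes, 2.43% and 5.19%), and 5 and 13 by the adjusted p alone (all genes, 27.5% and 33.5%). *IL1R1*, the signalling receptor of IL-1, fell from 46.4, 45.4 and 46.6 TPM to 9.35, 10.1 and 9.64 TPM (-2.14, SE 0.040, adjusted p = 4.44e-07). Its decoy *IL1R2* fell from between 19.1 and 19.5 TPM to between 4.62 and 5.25 TPM (-1.76, SE 0.050, adjusted p = 1.73e-06). *TLR2* fell from between 3.50 and 5.59 TPM to between 0.408 and 1.48 TPM (-1.66, SE 0.24, adjusted p = 0.00131), and *TLR3*, the sensor of double-stranded RNA, rose from between 4.37 and 6.45 TPM to between 17.5 and 18.8 TPM (1.59, SE 0.12, adjusted p = 6.16e-05).

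Of 28 factors of the NF-κB and AP-1 pathways, 5 were called higher and 1 lower in CAKi-1 (all genes, 2.21% and 1.12%), while by the adjusted p alone 7 were higher and 7 lower (all genes, 17.9% and 21.1%). *NFKBIA*, which encodes the NF-κB inhibitor IκBα and is itself an NF-κB target, was 29.4, 35.9, 67.1 and 137 TPM in WT and between 117 and 212 TPM in A4KO (1.42, SE 0.42, adjusted p = 0.0241). *CEBPD* was 22.1, 26.7, 51.0 and 94.6 TPM in WT and between 76.5 and 114 TPM in A4KO (1.16, SE 0.38, adjusted p = 0.0356). *CEBPB* was 87.1, 91.7, 137 and 223 TPM in WT and between 217 and 342 TPM in A4KO (1.14, SE 0.27, adjusted p = 0.00997). These 3 had the WT order of the chemokines, with WT 4 overlapping A4KO.

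The calls of *NFKBIA*, *CEBPD* and *CEBPB* rested on single libraries. Each was lost without WT 1 or without WT 2, when their log2 fold changes lay between 0.87 and 1.21. *CEBPD* was also lost without WT 3 or A4KO 2, and *NFKBIA* and *CEBPD* without A4KO 1 or A4KO 4. With each library left out in turn, the log2 fold change lay between 0.87 and 1.55 for *CEBPD* and between 1.11 and 1.84 for *NFKBIA*. Only 1 gene of this list was called without WT 1, and 2 without WT 2. Without WT 3 and WT 4 together, 10 were called, 9 of them higher, and *NFKBIA* had a log2 fold change of 2.18 (adjusted p = 0.00188). *FOSL1*, an AP-1 subunit, fell from between 284 and 326 TPM to 53.3, 119, 164, 53.7 and 144 TPM (-1.64, SE 0.34, adjusted p = 0.00512) and was called without each library in turn.

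In 786O the same 28 factors had 1 called higher and 4 lower (all genes, 2.43% and 5.19%), and 9 higher and 9 lower by the adjusted p alone (all genes, 27.5% and 33.5%). *ATF3* rose from between 3.46 and 4.27 TPM to between 12.4 and 15.5 TPM (1.66, SE 0.098, adjusted p = 2.49e-05). *FOS* fell from 78.4, 75.2 and 70.4 TPM to 24.9, 27.4 and 24.9 TPM (-1.50, SE 0.059, adjusted p = 5.57e-06), and *FOSB* fell from between 6.88 and 7.77 TPM to between 1.55 and 2.34 TPM (-1.49, SE 0.10, adjusted p = 4.97e-05). *BCL3*, an atypical IκB protein, fell from between 71.8 and 78.4 TPM to between 26.2 and 27.0 TPM (-1.46, SE 0.044, adjusted p = 2.09e-06). *NFKBIA* was between 54.0 and 58.4 TPM in WT and between 39.5 and 41.0 TPM in A4KO, a log2 fold change of -0.45 that was below the size needed for a call.

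Among 12 factors that govern the decay of short-lived transcripts such as those of the chemokines, 1 was called higher and 0 lower in CAKi-1 (all genes, 2.21% and 1.12%), while by the adjusted p alone 3 were higher and 6 lower (all genes, 17.9% and 21.1%). *ZC3H12A* (regnase-1) was 6.65, 9.90, 24.4 and 63.3 TPM in WT 1 to 4 and 136, 92.0, 75.7, 132 and 71.2 TPM in A4KO 1 to 5 (2.36, SE 0.56, adjusted p = 0.00900). It had the WT order of the chemokines, without overlap between the groups. In 786O limma called 0 of the 12, with 5 higher and 2 lower by the adjusted p alone (all genes, 27.5% and 33.5%), and *ZC3H12A* was between 9.96 and 11 TPM in WT and between 10.6 and 12.2 TPM in A4KO.

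**Figure D5:**
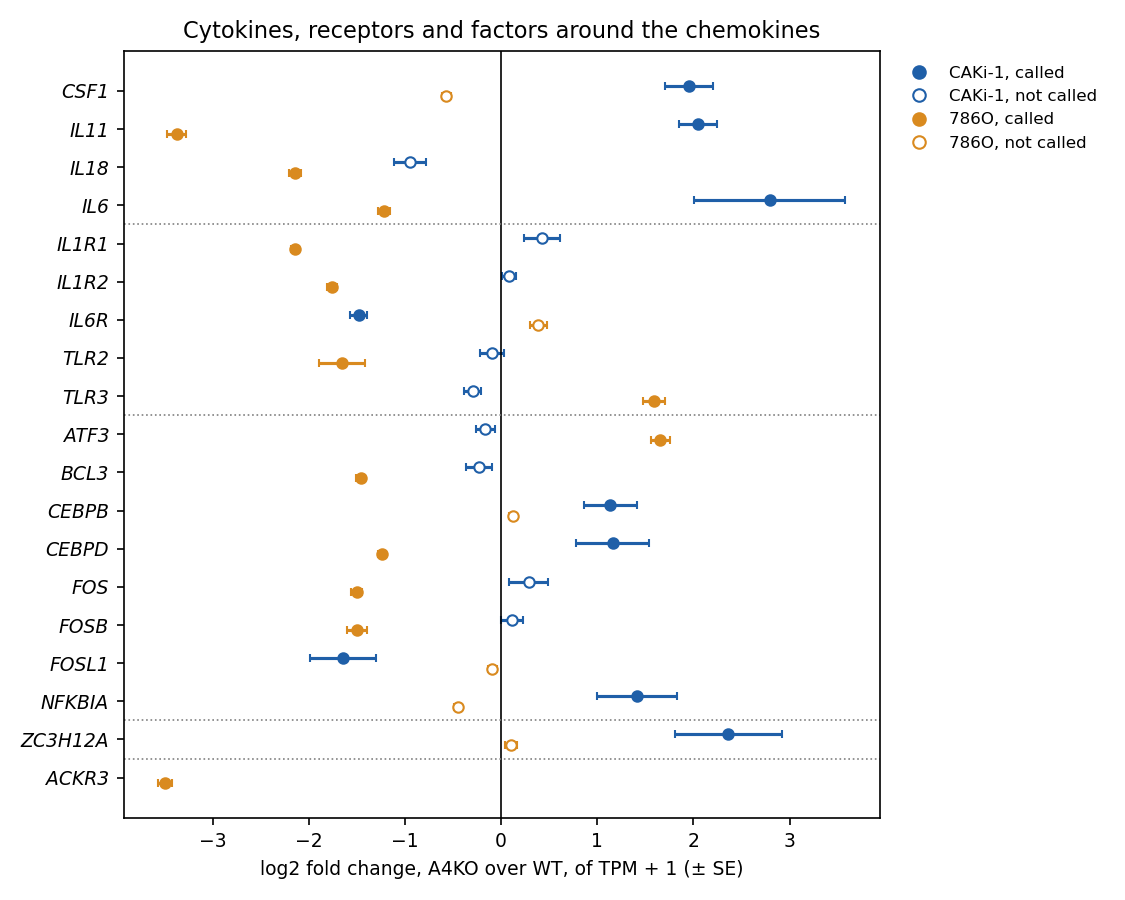
Log2 fold change of TPM + 1, A4KO over WT, with its SE, for the called cytokines, sensing receptors, NF-κB and AP-1 factors, decay factor and chemokine receptor named in the text (blue, CAKi-1; orange, 786O; filled, called; open, not called). Dotted lines part the lists. *IL6*, *IL11* and *CEBPD* are above 0 in CAKi-1 and below 0 in 786O.

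The 9 NF-κB letters of the CXC promoters were also present upstream of other genes, which gives a comparison outside the group. Of 55 such genes in CAKi-1, 4 were called higher and 1 lower (7.27% and 1.82%), against 2.01% and 1.02% of the 12319 genes of the line with a promoter entry. Their median log2 fold change was 0.072, against -0.014. In 786O, 2 of 62 were called higher and 5 lower (3.23% and 8.06%), against 2.47% and 5.07% of 12161 genes, with a median of 0.036 against -0.031. The match of letters is a description of the sequence and not of binding.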

How the data were processed

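Poly(A) RNA-seq libraries of CAKi-1 and 786O were pseudoaligned to hg38 by the authors with Kallisto (version not given in the sources used here), and gene values were deposited as 1 table per line. The unit was taken to be TPM from the values, since library totals ran from 961437 to 973887. The study states 1 sequencing depth for all libraries, but the reads of each library cannot be recovered from TPM, and no count model was used. Libraries were grouped by genotype label. Nothing in the labels says whether replicates were separate cultures, so p-values measure the spread between these libraries, which may be technical.

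A4KO and WT libraries of a line were compared on the deposited TPM, as log2(TPM + 1), with limma 3.58.1 in R 4.3.3, separately for CAKi-1 and 786O (lmFit and eBayes, two-sided, Benjamini-Hochberg over all genes of the line, no filter). Calls needed a log2 fold change of 1 or more in size together with an adjusted p not above 0.05, the thresholds of the study. The chemokines and all gene lists were chosen with earlier results of these data known. Named are the 8 chemokines and *ANGPTL4*, their receptors, *PTPRC*, *PAX8* and *CA9*, up to 4 called genes of largest change per list and line, and the 10 genes most like the chemokines in CAKi-1. Genes outside this rule are *CSF2*, *CSF3*, *IL1B*, *LCN2* and the called cell type markers. Alternatives were another pseudocount, a filter on low values, quantile normalization, eBayes with trend and robust options, the adjusted p alone, the replicate number as a block, and libraries left out. Promoters came from RefSeq for 7 of the 8 chemokines.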

Additional observations from a re-analysis of the deposited data

Results flagged for a closer look

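Of the 27 chemokines and named called genes analysed in both lines, 6 had effects of opposite sign in the lines without overlap between A4KO and WT in either line, as had 16.1% of all 15247 genes analysed in both. The 27 were chosen with these values known or named for a large called change. Their count is therefore not a like comparison with all genes, and nothing is read from it. The difference between the lines was not tested, and the values of each line were scaled on their own. The log2 fold change of *CXCL1* was 4.08 in CAKi-1 and -1.55 in 786O, and that of *CXCL5* was 5.75 and -1.40. Among genes outside the group, *CCL28* had 1.53 and -1.18, *IL11* had 2.05 and -3.37, *CSF1* had 1.95 and -0.57, and the receptor *IL6R* had -1.48 and 0.39. *CXCL8*, at 4.16 and -2.64, had the same signs but overlapping groups in CAKi-1.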

How the results depend on the processing

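No called gene named by the rule changed direction under any alternative that was run, and *CCL20* in 786O, not called, lay between -0.049 and 0.19 on the log2 scale with each library left out. In CAKi-1 the count of called chemokines, 6, was 5 with the replicate block and 3 without A4KO 1 and 4 together, and ranged from 3 to 7 with each library left out. The block also takes A4KO 5 out of the contrast, as no WT library has its number. Leaving out A4KO 5 without a block gave the same 5 chemokines. Leaving out each library gave 3 to 8 called cytokines, 1 to 2 sensing receptors and 1 to 8 NF-κB and AP-1 factors. Without WT 3 and 4 these were 8, 2 and 10, and without A4KO 1 and 4 the factors were 1. The adjusted p alone gave 3 chemokine receptors, 5 cytokines, 8 sensing receptors, 14 factors and 9 decay factors, a pseudocount of 0.1 gave 1 receptor, and the replicate block gave 2 sensing receptors. In 786O the adjusted p alone gave 5 chemokines, 6 other ligands, 2 receptors, 12 cytokines, 18 sensing receptors, 18 factors and 7 decay factors, and a pseudocount of 0.1 gave 5 other ligands, 7 cytokines and 7 sensing receptors. The count of all called genes was 543 in CAKi-1 (1077 with a pseudocount of 0.1, 6348 by the adjusted p alone) and 1233 in 786O (2095 and 9874). The remaining 168 counts under alternatives stayed within 1.5 times the count reported. Libraries with the same replicate number did not deviate together (r between -0.061 and 0.134 in CAKi-1 and between -0.046 and 0.018 in 786O), so the replicate block, which called 603 genes in CAKi-1 and 1233 in 786O, was not used. Of these counts the fold change sets most, since 616 and 1235 genes passed it under the block, and the adjusted p alone passed 5609 and 9312. The spread between the 4 WT libraries of CAKi-1 limits the values of the 7 chemokines described in that line, the 3 libraries a group limit 786O, and levels under about 1 TPM are compressed by the pseudocount.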
